A study of Danio rerio with 6 samples.

Results

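Keratins are the intermediate filament proteins of epithelial cells, and each filament is built from an acidic type I keratin paired with a basic type II keratin. The epidermis of the zebrafish embryo has an outer layer, the periderm, over a basal layer that lies on the basement membrane, and the layers use different keratin pairs. The transcription factor p63, encoded by *tp63*, specifies basal keratinocytes, and E-cadherin, encoded by *cdh1*, holds epithelial cells together at adherens junctions. The 10 genes described here are the type II keratin genes *krt4*, *krt5* and *krt8*, the type I keratin genes *krt15*, *krt17*, *krt91*, *krtt1c19e* and *cyt1*, and the epidermal genes *tp63* and *cdh1*. The set was chosen with earlier results of these data known. Its genes were looked up by symbol, and all 10 were found among the 26375 identifiers counted in each library. *krtt1c19e* was matched through its other name, *krt1-19e*. All 10 had enough counts to be tested.

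RNA-seq was performed on 3 sibling and 3 *mettl16*-/- libraries from zebrafish embryos at 3 days postfertilization (dpf). The labels give the siblings as mettl16+/+ without treatment, and the mutants as a gene knockout, which came from a stable CRISPR/Cas9 line with a deletion in *mettl16*, an RNA methyltransferase gene. The RNA came from the trunk and tail, including the caudal hematopoietic tissue (CHT), of many embryos pooled per sample after their heads had been used for genotyping, so skin was collected together with muscle, notochord, neural tube, vessels and blood. Levels are given as CPM, counts scaled to a common library total, after TMM scaling, an edgeR step that adjusts each total for library composition. The levels of different genes are not compared, since they also follow transcript length.

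The libraries held 16239791 to 18541402 counts. *mettl16* (ENSDARG00000055838) was at 6.13, 6.17 and 7.01 CPM in sibling replicates 1, 2 and 3 and at 4, 3.28 and 5.15 CPM in the mutant replicates. Counts cover the whole gene, not the deleted stretch alone. Each mutant library was below each sibling library, and the log2 fold change was -0.63 ± 0.211 (SE), although the adjusted p of 1 missed the threshold in edgeR's quasi-likelihood test. Of the 18487 genes tested, 0.124% passed an adjusted p of 0.05 between the genotypes, 0.114% as higher and 0.0108% as lower in the mutants. Labels do not say whether the libraries of a group came from separate clutches, so the p-values measure only the spread between these samples.

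No difference between siblings and mutants was detected for the epidermal keratin genes, *tp63* or *cdh1*, and the 95% intervals of the 10 fold changes lay between 0.758-fold and 1.44-fold. None of the 10 passed the threshold in either direction in edgeR: 0 had an unadjusted p under 0.05, where 2.17% of all genes did, and the lowest was 0.348. DESeq2 also called 0 at an adjusted p of 0.05, against 0.325% of all genes, and its lowest unadjusted p for these genes was 0.325. The 2 groups of libraries overlapped for each of the 10 genes. They did not overlap for 6.89% of all genes tested, so for 10 genes this is close to the share over all genes. The log2 fold change was above 0 for 7 of the 10 genes and for 49.1% of all genes, with a median of 0.062 for these genes and -0.0032 for all. Signs depend on the scaling: without TMM the median over all genes moved by -0.055 and *krt5* and *krt8* went below 0, and the signs counted for gene lists further on hold for TMM scaling. The standard errors of these log2 fold changes ran from 0.0866 to 0.162 with a median of 0.117, below the median of 0.187 over all genes tested. Counting itself added little error, since the lowest count, 788 for *tp63* in mutant replicate 3, has a Poisson standard error of 3.56%. In RNA from whole tissue, fewer skin cells and less RNA per cell cannot be told apart.

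**Figure D1:**
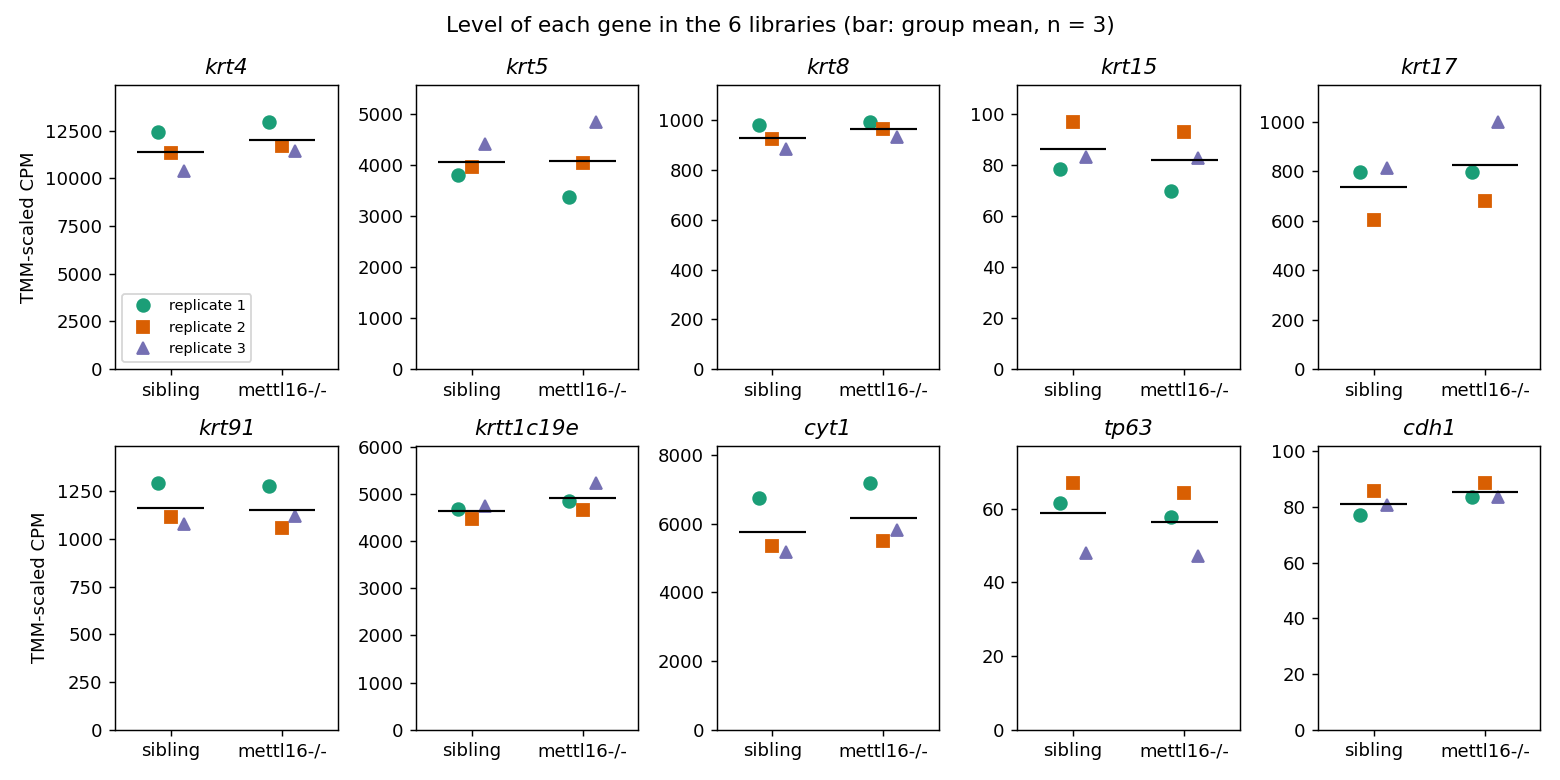
TMM-scaled CPM (vertical axes, each starting at 0) of the 10 genes in the 3 sibling and 3 mettl16-/- libraries, with marker shape for the replicate number and a bar for the group mean. Sibling and mutant points overlap in every panel; krt4 lies between 10359 and 12950 CPM and tp63 between 47.2 and 67 CPM.

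Among the type II genes, *krt4* (ENSDARG00000017624), whose promoter is widely used to drive transgenes in the zebrafish surface epidermis, was at 12411, 11324 and 10359 CPM in sibling replicates 1, 2 and 3. In the mutants it was at 12950, 11673 and 11444 CPM. Under TMM scaling each mutant library was above the sibling library of its own number, but the lowest mutant library lay within the sibling range. The group means were 11365 ± 1027 CPM in siblings and 12022 ± 812 CPM in mutants (SD, n = 3 each). The log2 fold change was 0.081 ± 0.0987 (SE), with a 95% interval from -0.14 to 0.30. In counts, *krt4* alone took 1.04% to 1.24% of each sibling library and 1.1% to 1.27% of each mutant library.

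*krt5* (ENSDARG00000058371), whose mammalian counterpart is the type II keratin of basal keratinocytes, was at 3797, 3951 and 4408 CPM in siblings and at 3362, 4032 and 4839 CPM in mutants. The mutant libraries enclosed the sibling range on both sides, with replicate 1 the lowest and replicate 3 the highest in each group. Means were 4052 ± 318 and 4078 ± 740 CPM (SD, n = 3 each), and the log2 fold change was 0.0091 ± 0.131 (SE; 95% interval -0.28 to 0.30). *krt8* (ENSDARG00000058358), a type II keratin that is typical of simple epithelia in mammals, was at 981, 926 and 886 CPM in siblings and at 994, 965 and 935 CPM in mutants. These 6 values lay in a narrow range, with replicate 1 the highest and replicate 3 the lowest of each group, and the group means were 931 ± 47.7 and 965 ± 29.7 CPM (SD, n = 3 each). Its log2 fold change of 0.051 ± 0.0866 (SE) had a 95% interval from -0.14 to 0.24.

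Of the type I genes, *cyt1* (ENSDARG00000092947), a keratin gene expressed in the periderm, was at 6736, 5355 and 5184 CPM in siblings. In mutants it was at 7191, 5507 and 5823 CPM. Replicate 1 was the highest of each group by more than the group means differed. The means were 5758 ± 851 and 6174 ± 895 CPM (SD, n = 3 each), for a log2 fold change of 0.10 ± 0.133 (SE; 95% interval -0.20 to 0.40). *krt17* (ENSDARG00000094041), whose mammalian counterpart is known from skin appendages and wounded epidermis, was at 797, 603 and 815 CPM in siblings and at 796, 678 and 1000 CPM in mutants. Replicate 2 was the lowest of each group and mutant replicate 3 stood above the other libraries. The means were 738 ± 117 and 825 ± 163 CPM (SD, n = 3 each), and the log2 fold change of 0.16 ± 0.162 (SE) had the widest 95% interval of the 10 genes, from -0.21 to 0.52.

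*krtt1c19e* (ENSDARG00000090268), a type I keratin gene known as a marker of basal keratinocytes in zebrafish, was at 4687, 4473 and 4742 CPM in siblings and at 4856, 4656 and 5238 CPM in mutants. Mutant replicate 2 lay within the sibling range, and the other mutant libraries lay above it. With means of 4634 ± 142 and 4917 ± 295 CPM (SD, n = 3 each), the log2 fold change was 0.085 ± 0.0871 (SE; 95% interval -0.11 to 0.28). *krt91* (ENSDARG00000036830) was at 1294, 1115 and 1077 CPM in siblings and at 1278, 1056 and 1120 CPM in mutants, with replicate 1 the highest of each group. Its means of 1162 ± 116 and 1151 ± 114 CPM (SD, n = 3 each) gave a log2 fold change of -0.013 ± 0.109 (SE; 95% interval -0.25 to 0.23). *krt15* (ENSDARG00000036840) was at 78.6, 96.9 and 83 CPM in siblings and at 69.8, 93 and 82.9 CPM in mutants. Replicate 2 was the highest and replicate 1 the lowest of each group. The means were 86.1 ± 9.54 and 81.9 ± 11.6 CPM (SD, n = 3 each), and the log2 fold change was -0.073 ± 0.126 (SE; 95% interval -0.35 to 0.21).

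The regulator *tp63* (ENSDARG00000044356) was at 61.6, 67 and 47.8 CPM in siblings and at 57.6, 64.1 and 47.2 CPM in mutants. Replicate 3 was the lowest and replicate 2 the highest in both groups. The means were 58.8 ± 9.93 and 56.3 ± 8.52 CPM (SD, n = 3 each), and the log2 fold change of -0.064 ± 0.15 (SE) had a 95% interval from -0.40 to 0.27. *cdh1* (ENSDARG00000102750) was at 77, 85.6 and 80.7 CPM in siblings and at 83.5, 88.7 and 83.5 CPM in mutants. Mutant replicates 1 and 3 lay below sibling replicate 2, so the groups overlapped. The means were 81.1 ± 4.28 and 85.2 ± 2.99 CPM (SD, n = 3 each), for a log2 fold change of 0.072 ± 0.0892 (SE; 95% interval -0.13 to 0.27).

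**Figure D2:**
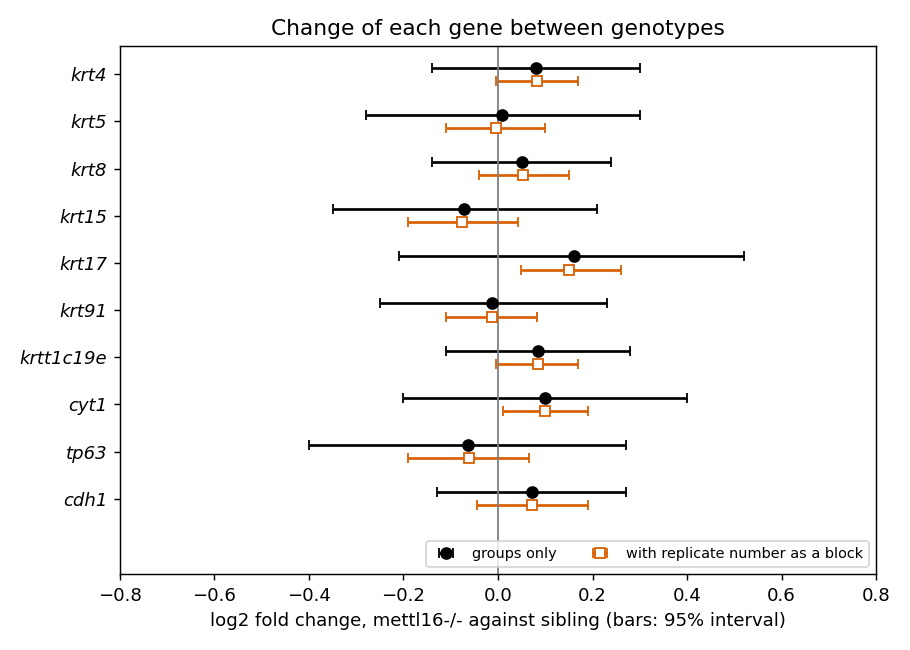
Log2 fold change of mettl16-/- against sibling (horizontal axis) for each gene, with bars for the 95% interval, from the fit of the groups alone (black circles) and from the fit blocked by replicate number (orange squares). All 10 black intervals include 0; with the block the intervals of krt17 (0.048 to 0.26) and cyt1 (0.011 to 0.19) lie above 0, at edgeR adjusted p of 0.233 and 0.455.

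Genotypes were also compared within replicate numbers. When each mutant library was set against the sibling library of its own number, the 3 log2 ratios had the same sign for 7 of the 10 genes and for 29.9% of all genes tested. For *krt4* they were 0.061, 0.044 and 0.14, and for *tp63* -0.10, -0.065 and -0.019. Such small ratios depend on the TMM scaling. As a percent of counts, without TMM, *krt4* was lower in mutant replicate 2 (1.16%) than in sibling replicate 2 (1.19%). The count of genes with 1 sign therefore holds for TMM scaling only. In the blocked edgeR fit 2 of the 10 genes had an unadjusted p under 0.05, where 9.2% of all genes did. These were *krt17*, at a log2 fold change of 0.15 ± 0.0518 (SE) and an edgeR p of 0.00633, and *cyt1*, at 0.10 ± 0.0435 (SE) and an edgeR p of 0.0287. Neither passed after adjustment over all genes, with adjusted p of 0.233 and 0.455 in edgeR, while 1.04% of all genes did.

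A test of the replicate number itself, added after the data had been seen, gave an adjusted p under 0.05 for 7 of the 10 genes, against 24.7% of all genes tested. Such calls were more frequent among abundant genes: of the 2034 genes at or above 57.6 CPM, the mean level of *tp63*, 51.1% passed. *krt17* had the lowest adjusted p for the number (9.06e-06 in edgeR), and its mean was 1.42-fold higher in the libraries numbered 3 than in those numbered 2. *cyt1* followed (adjusted p = 1.3e-05, 1.28-fold between numbers), and then *tp63* (0.000176, 1.38-fold), *krt5* (0.000351, 1.29-fold) and *krt15* (0.00173, 1.28-fold). *krt91* and *krt4* also passed, at 1.18-fold and 1.16-fold, while *krt8*, *krtt1c19e* and *cdh1* did not, at 1.08-fold, 1.09-fold and 1.09-fold.

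The genes did not share a single order across the numbers. *krt4*, *cyt1*, *krt91* and *krt8* were highest in number 1 in both genotypes, *krt5*, *krt17* and *krtt1c19e* in number 3, and *krt15*, *tp63* and *cdh1* in number 2. How often the genotypes share their highest number over all genes tested was not computed. What a replicate number stands for, such as a clutch, a collection or a library preparation, is not stated in the sources used here, so these cannot be told apart.

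**Figure D3:**
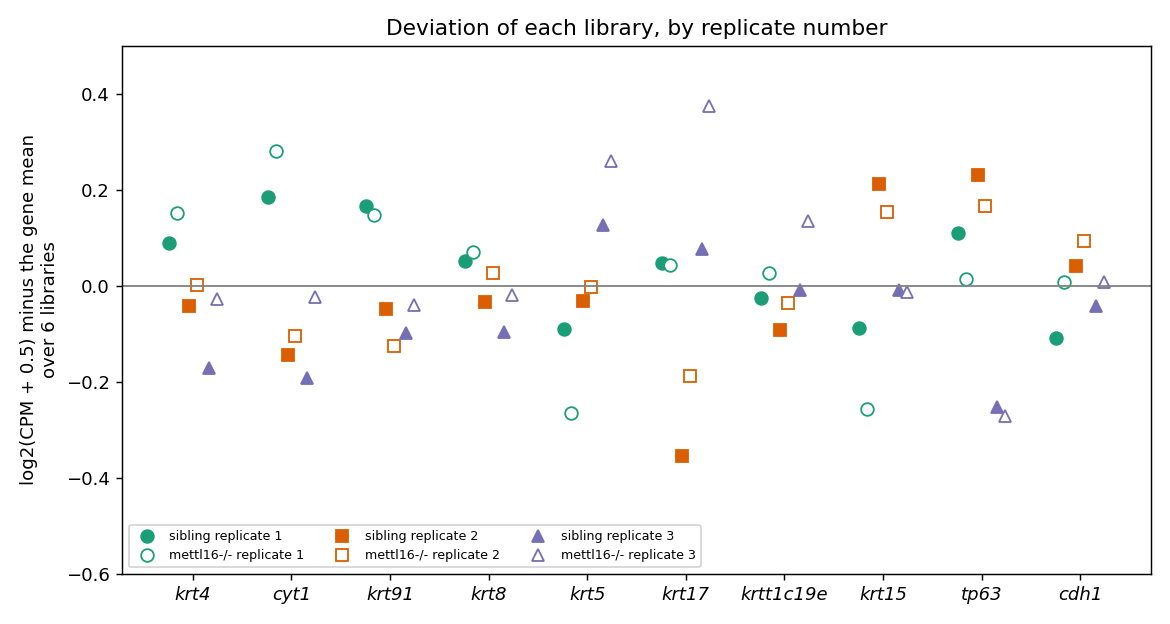
Log2(CPM + 0.5) of each library minus the mean of the 6 libraries for that gene (vertical axis), by gene, with marker shape and colour for the replicate number, filled for siblings and open for mettl16-/-. The same number is highest in both genotypes for every gene shown. That holds for the 7 genes with an adjusted p under 0.05 for the number and also for krt8, krtt1c19e and cdh1, which did not pass. Some margins are small, as for krtt1c19e in siblings (4742 CPM in number 3 and 4687 CPM in number 1). The share of all genes tested with the same highest number in both genotypes was not computed. Partners can lie apart, as for krt17 in number 3 (0.077 in sibling and 0.374 in mettl16-/-).

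Summed over the 8 keratin genes, the counts made up 3.08%, 2.92% and 2.77% of the sibling libraries and 3.1%, 2.86% and 2.92% of the mutant libraries. The groups overlapped, with means of 2.92% ± 0.157 and 2.96% ± 0.125 (SD, n = 3 each), a difference smaller than the spread within either group. Filaments need both types, and the summed type I counts over the summed type II counts were 0.791, 0.719 and 0.76 in siblings and 0.82, 0.719 and 0.77 in mutants. This ratio, which is not corrected for transcript length and is read only between libraries, was highest in number 1 and lowest in number 2 in both groups. *cyt1* counts over *krt5* counts were 1.77, 1.36 and 1.18 in siblings and 2.14, 1.37 and 1.2 in mutants. In which skin layer *krt5* is expressed was not measured here, so this ratio is not read as periderm over basal layer. The ratio was again highest in number 1, by more than the genotypes differed. *krt4* over *cyt1* had a narrower range, between 1.8 and 2.12 in all 6 libraries.

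**Figure D4:**
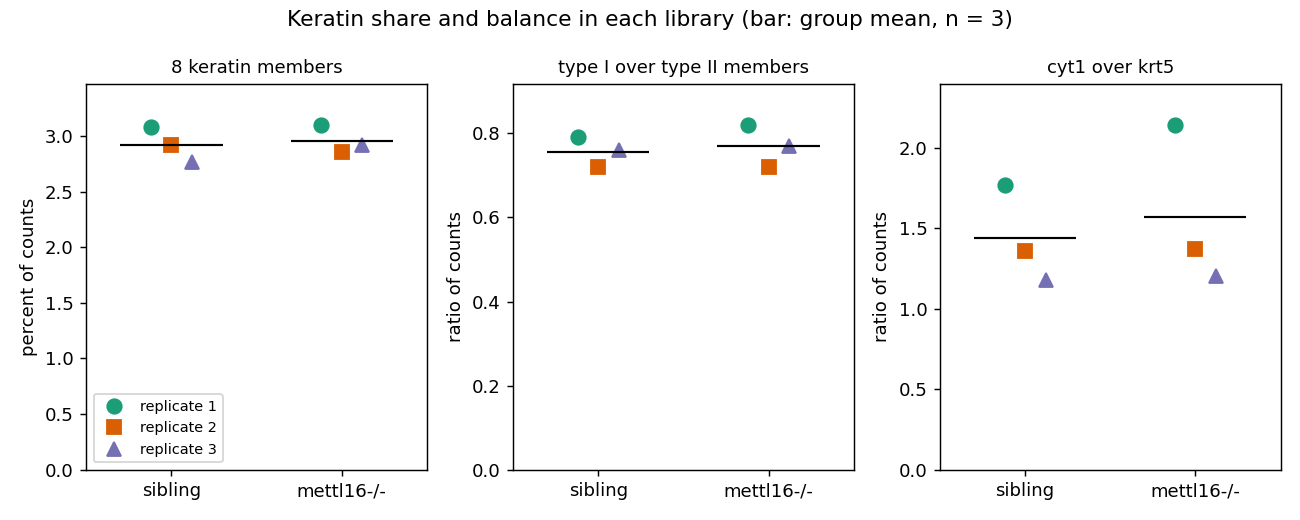
Left, counts of the 8 keratin genes as a percent of each library; middle, summed type I over type II counts; right, cyt1 over krt5 counts, all against genotype, with marker shape for the replicate number and a bar for the group mean. The share lies between 2.77% and 3.1%, and cyt1 over krt5 is highest in replicate 1 of each genotype, at 1.77 and 2.14.

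Several of these keratin genes are neighbours in the genome. In the order of protein-coding genes in the RefSeq annotation of the GRCz12tu assembly, which is not the build used for counting, *krt1-19d*, *krtt1c19e*, *krt92*, *cyt1l*, *cyt1*, *krt17* and *krt91* are 7 consecutive genes. *krt5* and *krt8* are adjacent, followed by *krt18a.1* and *krt18a.2*, and *krt15* lies in a row of keratin genes elsewhere. The genes in the row of 7 did not share an order across the libraries. *cyt1l*, a close relative of *cyt1*, was at 4856, 3933 and 3118 CPM in siblings and at 5130, 3864 and 3415 CPM in mutants, highest in number 1 like *cyt1*. *krt92* was at 172, 160 and 280 CPM in siblings and at 151, 161 and 226 CPM in mutants, highest in number 3 like *krt17*. Keratin genes are similar in sequence, and how reads that fit several genes were assigned is not stated, so the split of counts between such neighbours is uncertain.

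The files held 14 more keratin identifiers, of which 11 were tested, 3 with a log2 fold change above 0 and 8 below, with a median of -0.065. In edgeR and in DESeq2 0 passed an adjusted p of 0.05, and in edgeR 0 had an unadjusted p under 0.05. The 3 most abundant were *cyt1l*, *krt18a.1* and *krt97*, at log2 fold changes of 0.06 ± 0.191, 0.033 ± 0.0954 and -0.065 ± 0.1 (SE). In the blocked edgeR fit 2 of the 11 had an unadjusted p under 0.05, where 9.2% of all genes did, and both were lower in mutants. These were *krt92*, at a log2 fold change of -0.17 and an edgeR p of 0.0074, and *krt1-c5*, at -0.38 and 0.00962. Neither passed after adjustment, with adjusted p of 0.251 and 0.294 in edgeR. *krt93*, *krt95* and *krt98* had at most 8 counts in any library and were not tested. With all 22 keratin genes summed, the share was 3.66%, 3.43% and 3.18% of counts in siblings and 3.69%, 3.33% and 3.34% in mutants.

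Genes with other roles in the epidermis were read from 7 lists that together hold 112 identifiers, *foxi3a*, *foxi3b* and *hmcn1* each standing in a pair of lists, and 109 were tested. Over them 63 log2 fold changes were above 0 and 46 below, with a median of 0.019. In edgeR and in DESeq2 0 passed an adjusted p of 0.05. At an unadjusted p under 0.05 in edgeR 0 were higher and 3 lower, where 2.17% of all genes passed. Each mutant library was above each sibling library for 2 of the 109 and below for 3. Groups did not overlap in either direction for 6.89% of all genes tested. In the blocked fit 16 of the 109 had an unadjusted p under 0.05, where 9.2% of all genes did. The hemidesmosome and basement membrane list held 6 of these 16. After adjustment in the blocked fit 1 was higher and 1 lower, where 1.04% of all genes passed.

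Of 21 epidermal transcription factors and kinases, all tested, 11 were above 0, with a median of 0.023. The most abundant, *tfap2a*, *tfap2c* and *klf3*, had log2 fold changes of -0.084, -0.034 and 0.22. *klf17*, a Krüppel-like transcription factor, was at 6.48, 6.79 and 7.07 CPM in siblings and at 5.51, 4.79 and 5.27 CPM in mutants. Its groups did not overlap, yet the log2 fold change of -0.39 ± 0.168 (SE) had an unadjusted p of 0.0439 and an adjusted p of 1 in edgeR. For 1 other gene of this list each mutant library was above each sibling library. Of the 13 desmosome and cornified envelope genes, 11 were tested, with 8 above 0, a median of 0.039 and 0 at an unadjusted p under 0.05. Plakoglobin, listed as *JUP* (ENSDARG00000070787), which links cadherins to the cytoskeleton, was at 300 to 305 CPM in siblings and 297 to 312 CPM in mutants, and *ppl* and *perp* had log2 fold changes of -0.026 and 0.028.

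The hemidesmosome and basement membrane list, which anchors basal keratinocytes, had 16 of its 19 tested genes above 0 and a median of 0.06. Over all genes 49.1% were above 0. The signs in this list hold for TMM scaling only, since the median over all genes moved by -0.055 without it. *col17a1a*, *plecb* and *pleca*, its most abundant members, had log2 fold changes of 0.068, 0.12 and 0.0035. The gene listed as *FREM2* (ENSDARG00000102626) encodes an extracellular matrix protein of the epidermal basement membrane. It was at 75.4, 74.7 and 67.3 CPM in siblings and at 62.4, 62.1 and 58.8 CPM in mutants. Each mutant library was below each sibling library, at a log2 fold change of -0.25 ± 0.0922 (SE). Its adjusted p was 1 in edgeR and 0.0376 with the replicate block. Another identifier shares the name *FREM2* and was not called, and which of them is the listed *frem2a* was not resolved. *lama3*, a laminin chain, was at 6.01, 6.12 and 5.15 CPM in siblings and at 3.82, 5.12 and 3.29 CPM in mutants, with a log2 fold change of -0.50 ± 0.218 (SE) and adjusted p of 1 and, with the block, 0.274.

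In the adherens and tight junction list, 7 of 19 tested genes were above 0, with a median of -0.013 and 0 at an unadjusted p under 0.05. *ctnnb1* (beta-catenin) and *cldni* (a claudin), with *cdh1* at cell contacts, had log2 fold changes of -0.013 and 0.049. *epcam*, an epithelial adhesion molecule, spread far more, at 219, 138 and 78.9 CPM in siblings and 250, 95 and 80.9 CPM in mutants. It was highest in number 1 and lowest in number 3 in both groups, an order that *krt4* shared over a narrower range. Of 11 periderm secreted and surface genes, all tested, 5 were above 0, with a median of -6.6e-04 and 0 at an unadjusted p under 0.05. Its most abundant genes, *anxa1c*, *icn* and the gene listed as *ANXA1* (ENSDARG00000026726), had log2 fold changes of -0.058, 0.053 and -6.6e-04.

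Ionocytes are ion-transporting cells of the embryonic skin. The 14 symbols of their list matched 19 identifiers, since some names are shared by paralogs that may not be ionocyte genes. Of the 19, all tested, 9 were above 0, with a median of -0.0035 and 0 at an unadjusted p under 0.05. The Na,K-ATPase subunit gene listed as *ATP1B1* (ENSDARG00000013144) and the proton pump gene listed as *ATP6V1A* (ENSDARG00000034534) had log2 fold changes of -0.011 and -0.035. Several identifiers shared the name *RHCG*, an ammonia transporter, and which of them is the listed *rhcgb* was not resolved. Among them, ENSDARG00000003203 was at 108, 61.9 and 63 CPM in siblings and at 139, 87 and 82.3 CPM in mutants. Each mutant library was above the sibling library of its number, although the groups overlapped. Its log2 fold change of 0.41 ± 0.287 (SE) had an adjusted p of 1 in edgeR and of 4.59e-05 with the replicate block. In the fin fold list 8 of 12 tested genes were above 0, with a median of 0.022 and 0 at an unadjusted p under 0.05. *and1*, *and2* and *and3*, which encode actinodins of the fin fold fibres, had log2 fold changes of 0.088, 0.072 and 0.12, and for *and1* each mutant library was above each sibling library.

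Markers of other tissues were measured in the same libraries, since the amount of skin in the dissected tissue could vary. Each list was detected, with no marker at 0 in all 6 libraries. A few abundant genes can make up much of a sum. In sibling replicate 1 *actc1b* gave 64053 of the 145634 CPM of the muscle sum, and *hbae3* 2123 of the 2457 CPM of the blood sum. Summed CPM of 9 muscle markers was 116156 to 145634 in siblings and 135411 to 149881 in mutants, with 9 of 9 log2 fold changes above 0 and a median of 0.11. By replicate number, the muscle sums were 145634, 116156 and 132266 CPM in siblings and 148693, 135411 and 149881 CPM in mutants, higher in the mutant at each number. The sum over the 10 epidermal genes was likewise higher in the mutant at each number, at 30920, 27996 and 27681 CPM in siblings and 31638, 28813 and 30613 CPM in mutants. So was the vessel sum, at 207, 206 and 198 CPM in siblings and 213, 215 and 207 CPM in mutants. These directions were read under TMM scaling. As a percent of counts, without TMM, the 8 keratin genes were lower in the mutant at number 2 (2.92% in the sibling, 2.86% in the mutant). Summed blood markers (1856 to 2457 against 1961 to 2783 CPM), neural markers (580 to 647 against 587 to 617 CPM) and notochord markers (587 to 724 against 541 to 781 CPM) overlapped between siblings and mutants, and none of these 3 sums moved in 1 direction at every number. In these 5 lists 0 genes passed an adjusted p of 0.05 in edgeR or DESeq2, and 0 had an unadjusted p under 0.05 in edgeR. In the blocked edgeR fit 7 of the 9 muscle markers had an unadjusted p under 0.05, where 9.2% of all genes did. The counts were 2 of 9 blood, 0 of 9 vessel, 2 of 10 neural and 1 of 9 notochord markers. For 3 muscle markers and 1 vessel marker each mutant library was above each sibling library. Groups did not overlap for 6.89% of all genes tested. After adjustment in the blocked edgeR fit *actc1b* of the muscle list (log2 fold change 0.18, adjusted p = 0.0423) and *alas2* of the blood list (0.27, adjusted p = 0.0177) passed as higher.

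The gut, liver and pancreas list went the other way, at 6422, 7242 and 8144 CPM in siblings and 6218, 6233 and 6722 CPM in mutants, lower in the mutant at each number, with 9 of 10 log2 fold changes below 0 and a median of -0.21. Most of this sum was 1 gene, *apoa1b*, at 4881, 5305 and 5841 CPM in siblings and 4752, 4579 and 4879 CPM in mutants. *cela1.4*, a pancreatic elastase gene, was at 1.65, 1.95 and 4.07 CPM in siblings and at 0.188, 0.167 and 0.240 CPM in mutants, and was called lower on 3 to 4 counts per mutant library (log2 fold change -3.64 ± 0.521 SE, adjusted p = 0.0349 in edgeR). In edgeR 0 genes of the list were called when sibling replicate 2 or 3 or any of the mutant replicates was left out, and 4 were called lower with the replicate block. These were *cela1.4*, *prss59.1* (a trypsin gene), *tfa* (transferrin) and *fabp10a* (a liver fatty acid binding protein), at blocked adjusted p of 1.03e-05, 0.00522, 0.0217 and 0.0337 in edgeR. The part of tissue makeup in the small differences of the epidermal genes was not tested.

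For likeness, the deviations of the 10 genes from their own means, in log2 CPM, were averaged library by library. The mean profile was 0.034, -0.026 and -0.067 in siblings and 0.022, -0.0013 and 0.038 in mutants, a root mean square of 0.037. The 5 other tested genes nearest to it over the 6 libraries were *PLOD3*, the assembled locus MSTRG.16884, *mbd3b*, *SH3RF1* and *PLCD3*, at root mean square differences of 0.0162, 0.0168, 0.0188, 0.0213 and 0.0215. Since the 10 genes had opposed orders across the numbers, this mean profile is nearly flat, and genes near it are genes with little spread.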

How the data were processed

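RNA-seq was performed on pooled trunk and tail tissue, including the CHT, of 3 sibling and 3 *mettl16*-/- samples. The authors deposited whole-number read counts per gene, not normalized, after filtering, removal of ribosomal reads and mapping to Ensembl GRCz11. The submitters' processing notes name CASAVA 1.8, fastp 0.18.0, HISAT2 and StringTie 1.3.1. The counting tool and its use of strand and of reads that fit several genes are not given in the sources used here, so counts of paralogs are uncertain.

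Each file held 26375 identifiers (25197 Ensembl genes and 1178 assembled loci), of which 23499 had a symbol in the reference tables. Where a symbol of a list was not matched, the name shared by its paralogs was used. Of the list symbols, the desmosome list lacked 3, the periderm list 2, and the muscle, blood and gut lists 3, 3 and 1.

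Genes kept by filterByExpr (18487) were tested with edgeR 4.0.16 in R 4.3.3: TMM scaling, robust quasi-likelihood fit, group only, Benjamini-Hochberg over all genes tested, threshold 0.05. The fit was tested on simulated data. SE is the log2 fold change over the root of F, and intervals are 95%. DESeq2 1.42.0, other scalings and filters, the replicate number as a block and leaving out each library were alternatives.

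Deviations from group means correlated at 0.586, 0.312 and 0.518 between same-numbered libraries of the 2 groups and from -0.446 to -0.0362 between others. Such deviations sum to 0 within each group, so the negative values follow in part from the positive ones and are not separate support. The numbers were taken to pair libraries, and the p-values of the blocked fit rest on that reading. It comes from the data, since the labels do not say what a number marks.

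The 10 genes and the lists were chosen with earlier results of these data known. From each epidermal list the 3 genes with the highest mean CPM, each gene with an adjusted p under 0.05, and up to 2 per direction with the smallest unadjusted p under 0.05 were named, plus the 5 genes nearest in pattern. Of the lists of other tissues, genes with an adjusted p under 0.05 are named, and *actc1b*, *hbae3* and *apoa1b* also for their part in the sums. Genes called with the block, *krt1-c5*, *krt92*, *krt93*, *krt95* and *krt98* were named after their values were seen. Levels per transcript length were not computed, as no lengths were used here, so levels are not compared between genes.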

Additional observations from a re-analysis of the deposited data

How the results depend on the processing

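The 10 genes had 140 log2 fold changes under 14 alternatives, of which 125 kept their direction and 15 did not, 12 of those with a library left out; none passed an adjusted p of 0.05, the lowest being 0.233. Without TMM the median over all genes moved by -0.055, *krt5* went to -0.048 and *krt8* to -0.0026. Leaving out 1 library each moved *krt5* from -0.13 to 0.13, *krt15* from -0.17 to 0.031, *krt17* from -0.0021 to 0.28, *krt91* from -0.093 to 0.072, *cyt1* from -0.022 to 0.23 and *tp63* from -0.19 to 0.049; the cause was not tested. Over all genes, the main fit called 21 as higher and 2 as lower in the mutants. Without TMM 13 were called as higher. With no filter 24 were called as higher and 4 as lower. At a mean of at least 50 counts, which tests fewer genes, 0 were called as lower. DESeq2 called 43 as higher and 17 or 18 as lower, filtered or not. Leaving out 1 library gave 2 to 20 higher and 0 to 2 lower. For the gut, liver and pancreas list 0 were lower at a mean of at least 50 counts and 0 to 1 with a library left out.

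With the replicate block *krt5* was -0.0038, and 120 genes of all were called higher and 73 lower. The block added 1 lower call in the hemidesmosome list (*FREM2*), 1 higher in the ionocyte list (*RHCG*), and 1 higher each in the muscle (*actc1b*) and blood (*alas2*) lists. In the gut, liver and pancreas list 4 were called lower with the block, against 1 in the main fit. The block changed no other call described above. The comparison of levels per transcript length was not run.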
